A study of Rattus norvegicus with 2 samples.

Results

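Among named genes with their probes averaged, Clec1b and Mmrn1 had 2 of the 4 highest ratios of lung over control RNA in this series. They encode a receptor and a granule protein of platelets and are described here with the platelet genes Pf4, Ppbp, Gp5, Treml1 and Gp9. The 7 genes were found by gene symbol among 15611 named genes on the arrays, through 8 of the 20417 probes that carry a symbol. Clec1b and Mmrn1 were chosen by their very high ratios on these arrays, and the other 5 as platelet genes when results of these arrays were already known. Their ratios are therefore a description, and no test of them is given.

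RNA of untreated lung cells of the rat, taken without any culture, was labelled with Cy3 and hybridised on 2 two-colour arrays of Agilent design, 1 per lung sample (replicates 1 and 2). Every array carried the same control RNA in Cy5, called mix1: bone marrow cells mixed with primary ear fibroblasts, both from rats and both kept in culture with serum. The strain, sex and age of the rats, the share of each cell type in mix1 and how the lung cells were obtained are not given in the labels. No label says that the lung samples are from separate animals, so the spread between arrays may be technical.

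Each value is a log2 ratio of lung over mix1, on which 1 unit is a 2-fold difference. The base and the direction are not stated: the base was read from the range of the values, and the direction, which is likely, from how the series describes them. With it, 6 genes of lung epithelium used to settle the sign lay between 3.94 (Ager) and 7.02 (Sftpc), and all 10 markers of cultured stroma were lower, from -7.44 (Prrx1) to -1.01 (Pdgfra). With the sign turned, every direction below would be the opposite. The dye orientation was the same on both arrays, so dye bias and RNA cannot be told apart. The median gene lay at -0.22 and the median SD between the arrays was 0.05. A ratio from bulk RNA does not separate fewer cells of a type from less RNA per cell, and it does not separate a high level in lung from a low level in mix1.

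Platelets are cell fragments shed by megakaryocytes, and they carry megakaryocyte RNA although they have no nucleus. Megakaryocytes arise in the bone marrow and are also known in the vessels of the lung, where they release platelets. CLEC-2, the product of Clec1b, is a C-type lectin-like receptor that binds podoplanin and signals through the kinase Syk. It is needed for blood and lymph vessels to separate during development. Multimerin 1, the product of Mmrn1, is a large secreted protein of the EMILIN family that carries factor V in platelet alpha granules and is also made by endothelial cells. The other genes encode parts of the receptor for von Willebrand factor (Gp5, Gp9), chemokines of the alpha granules (Ppbp, Pf4) and an alpha granule membrane protein that reaches the surface on activation (Treml1).

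The ratios fell into 3 steps: Clec1b and Mmrn1 above 7.9 in each array, Gp5 and Treml1 near 3.4, and Gp9, Ppbp and Pf4 between 1.03 and 1.78. Genes next to each other in the order of means had overlapping ranges within a step, whereas the steps did not overlap. The lower array value of Mmrn1 was 4.56 above the higher one of Gp5, and the lower value of Treml1 was 1.57 above the higher one of Gp9. The place of Treml1 depends on which of its probes is read. Of all genes, 595 had mean ratios between those of Gp5 and Mmrn1.

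Clec1b lay at 8.69 in replicate 1 and 8.08 in replicate 2, the highest named gene in each array when probes of a gene are averaged. Its mean was 8.38 ± 0.44 (SD, n = 2), or 334-fold, with 414-fold in replicate 1 and 270-fold in replicate 2. The arrays thus differed by 1.53-fold, and 95.2% of all genes had a smaller SD. Among the 49 genes with a mean of at least 64-fold, the median SD was 0.11 and 89.8% had a smaller SD than Clec1b. The genes closest to Clec1b over the 2 arrays were Ccdc68 (8.52 and 7.86) and Aldh1a1 (8.44 and 7.86), at distances of 0.27 and 0.33 on the log2 scale. They too were higher in replicate 1, and a likeness over 2 arrays of one kind of sample holds no more than a similar ratio.

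Mmrn1 lay at 8.15 and 7.95 in replicates 1 and 2, with a mean of 8.05 ± 0.14 (SD, n = 2) or 265-fold. It was the fourth highest gene in replicate 1 and the second in replicate 2. Epcam (8.01 and 7.89), an adhesion molecule of epithelium, was the nearest gene, at a distance of 0.15, and Aldh1a1 followed at 0.30. Ordered by mean, Clec1b, Ccdc68, Aldh1a1 and Mmrn1 led the named genes, and the next were Epcam at 7.95 and Rnase3 at 7.66. By single probes the order differs, since 1 probe of Lyve1 (8.21) and 1 of Cxcl3 (8.20) lay above Mmrn1. Unnamed probes were not ranked. The rule that chose Clec1b and Mmrn1 has no numeric limit, so the neighbours in rank show only where the pair stands. Channel signals were not used here, so whether the mix1 channel was dim for these genes is unknown.

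**Figure D1:**
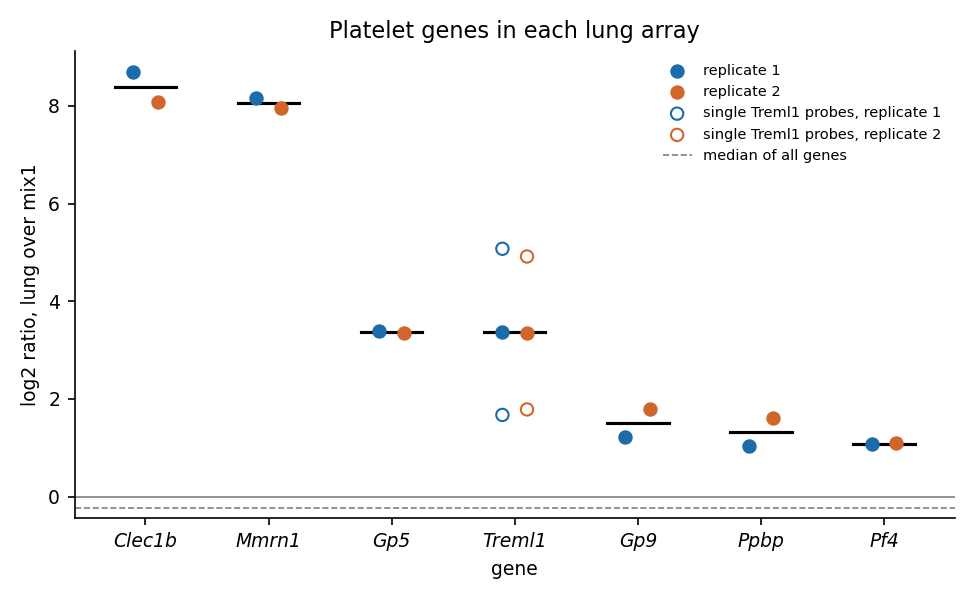
Log2 ratio of lung over mix1 for the 7 platelet genes (y axis) in replicates 1 and 2 (filled points), with black bars at the mean of the arrays and open points for the single probes of Treml1. Clec1b and Mmrn1 lie above 7.9, Gp5 and Treml1 near 3.4, and Gp9, Ppbp and Pf4 between 1.03 and 1.78; the dashed line is the median of all genes.

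Gp5 encodes glycoprotein V, the subunit of the von Willebrand factor receptor that thrombin cleaves. It lay at 3.39 in replicate 1 and 3.35 in replicate 2, with a mean of 3.37 ± 0.03 (SD, n = 2) or 10.3-fold. Treml1, averaged over its 2 probes, lay at 3.37 and 3.35, with a mean of 3.36 ± 0.02. Its probes were far apart, however: 1 lay at 5.07 and 4.92 and the other at 1.67 and 1.78, or 31.9-fold and 3.31-fold in the mean. The gap of 3.27 between them was larger than that of 97.3% of the 2969 genes with 2 probes, whose median gap was 0.61. RefSeq lists more than 1 transcript of Treml1, and which of them each probe reads was not tested. The agreement of Treml1 with Gp5 in the mean is thus no property of either probe. The other 6 genes had 1 probe each and could not be checked in this way.

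Gp9 encodes glycoprotein IX, which holds the von Willebrand factor receptor together. It lay at 1.23 in replicate 1 and 1.78 in replicate 2, with a mean of 1.51 ± 0.39 (SD, n = 2) or 2.84-fold. Ppbp, the precursor of the neutrophil attractant NAP-2, lay at 1.03 and 1.62, with a mean of 1.32 ± 0.42 or 2.50-fold. Both were higher in replicate 2, by 1.47-fold for Gp9 and 1.51-fold for Ppbp, whereas Clec1b was higher in replicate 1 by a similar factor. Pf4, or platelet factor 4, which binds heparin, lay at 1.07 and 1.09, with a mean of 1.08 ± 0.02 or 2.12-fold. The range of Ppbp overlapped those of Gp9 and Pf4, while both values of Gp9 were above both of Pf4. Of the 1329 genes with means between 1 and 2, 90.9% had a smaller SD than Gp9, 91.9% a smaller SD than Ppbp and 21.2% a smaller SD than Pf4. Of the 7 genes, 4 were higher in replicate 1 and 3 in replicate 2, and 48.6% of all genes were higher in replicate 1. Treml1, Gp5 and Pf4 differed by only 0.02, 0.04 and -0.02 (replicate 1 minus replicate 2), so nothing is read from this count. Of the others, Clec1b and Mmrn1 were higher in replicate 1 and Gp9 and Ppbp in replicate 2.

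**Figure D2:**
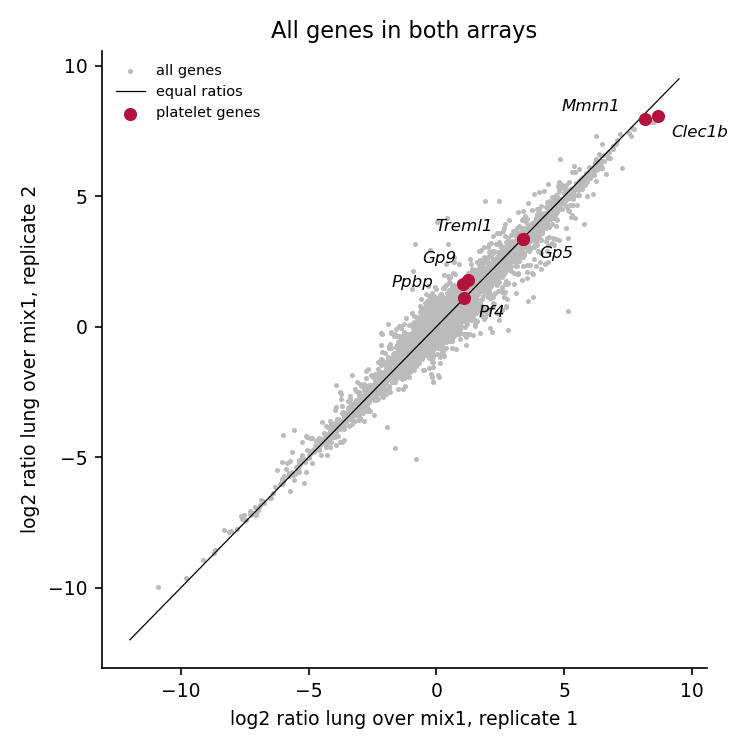
Log2 ratio of lung over mix1 in replicate 1 (x axis) and replicate 2 (y axis) for all 15611 genes (grey) and the 7 platelet genes (red), with a line of equal ratios. Clec1b lies below the line at 8.69 and 8.08, Gp9 and Ppbp lie above it, and Pf4 at 1.07 and 1.09 lies on it.

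All 7 genes were at least 2-fold higher in both arrays, as were 16.5% of all genes. Nothing is read from this count, since the contrast served to choose the genes. For all other genes, higher and lower here mean a pass in limma's moderated test at a Benjamini-Hochberg adjusted p under 0.05. In that test 32.9% of all genes were higher and 49.7% lower, so that 82.7% passed in one direction or the other. When the arrays were centred on their median probe, which raised values by 0.19 in the mean, 6007 genes were higher and 5931 lower, in place of 5142 and 7765 as deposited. Each of the 7 genes stayed above 1 in all 6 settings of scaling, centring and probe choice, from 1.08 for Pf4 to 8.57 for Clec1b.

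The 250 bases before the RefSeq starts of the 7 genes were searched for the motifs of factors that act in megakaryocytes. The table of promoters held 6 of the 7 genes. For GATA factors the words were AGATAA together with the variant TGATAA, then AGATAG together with the variant TGATAG. For ETS factors such as Fli1 they were AGGAAG together with CGGAAG, and for NF-E2 they were TGACTCA together with TGAGTCA, all on both strands. The last pair are each other's reverse complement and mark the same sites, and no word of one set overlaps a word of another in these 6 promoters. The stretches printed here, 5′ to 3′ along the gene with motif matches in capitals, are those in which at least 1 word was found.
Clec1b (chr4:164533859-164534016, GRCr8, plus strand): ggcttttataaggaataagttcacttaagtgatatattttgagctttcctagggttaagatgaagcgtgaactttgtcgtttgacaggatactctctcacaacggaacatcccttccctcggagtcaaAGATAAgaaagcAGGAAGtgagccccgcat
Mmrn1 (chr4:91233166-91233415, GRCr8, plus strand): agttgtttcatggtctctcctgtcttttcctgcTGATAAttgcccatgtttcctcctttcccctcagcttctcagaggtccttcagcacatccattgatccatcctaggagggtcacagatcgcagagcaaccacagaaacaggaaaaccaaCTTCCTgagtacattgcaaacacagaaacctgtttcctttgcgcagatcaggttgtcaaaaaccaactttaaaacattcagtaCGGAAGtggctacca
Gp5 (chr11:83948257-83948506, GRCr8, plus strand): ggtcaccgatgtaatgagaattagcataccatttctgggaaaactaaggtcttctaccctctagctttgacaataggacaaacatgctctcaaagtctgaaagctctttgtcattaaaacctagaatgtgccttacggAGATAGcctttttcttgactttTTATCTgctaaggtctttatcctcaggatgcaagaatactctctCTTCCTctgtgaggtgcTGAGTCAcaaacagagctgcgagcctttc
Gp9 (chr4:121792592-121792841, GRCr8, plus strand): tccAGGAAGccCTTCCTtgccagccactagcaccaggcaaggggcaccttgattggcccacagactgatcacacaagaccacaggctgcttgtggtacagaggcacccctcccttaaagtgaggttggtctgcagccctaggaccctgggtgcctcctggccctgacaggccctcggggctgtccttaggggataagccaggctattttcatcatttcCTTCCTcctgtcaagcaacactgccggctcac
The printed stretch of Clec1b ends 30 bases into the gene's longest annotated interval, and that of Mmrn1 lies inside such an interval, so a start upstream of the one used here is annotated for both.

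A GATA word was found in the windows of 3 of the 6 genes (Clec1b, Mmrn1 and Gp5), against 27% of 33469 rat promoters cut to the same length. An ETS word was found in the windows of those 3 and of Gp9, against 39.4% of promoters. Both kinds stood in the windows of Clec1b, Mmrn1 and Gp5, against 9.81% of promoters. In Clec1b, AGATAA at 122 bases before the start used is followed by AGGAAG 12 bases further on. A further ETS word on the other strand begins at 15 bases before that start, beyond the printed stretch. The pair of AGATAA and AGGAAG lies in the last 30 printed bases, and so inside the gene's longest annotated interval. Such a pair beginning within 30 bases was held by 3.03% of promoters and by Clec1b alone of the 6, a distance chosen after the sequence had been seen. In Mmrn1, TGATAA lies 217 bases before the start and CGGAAG 15 bases before it. Gp5 had 2 GATA words, 1 ETS word and the only NF-E2 word, which 4.05% of promoters held. No word was found before Treml1 or Ppbp, which says only that these letters are not in this window. A match is a description of the sequence and not a binding site.

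The binding partners of the leading pair had other ratios. Podoplanin (Pdpn), the ligand of CLEC-2 on alveolar type 1 and lymphatic endothelial cells, lay at 0.62 in replicate 1 and 0.66 in replicate 2, 1.56-fold higher in lung (limma adjusted p 0.00334). Its ratio was thus far under that of its receptor, but ratios to mix1 do not compare the levels of 2 genes in lung. Factor V (F5), which multimerin 1 carries in platelets, had 1 probe at 2.28 ± 0.03 (SD, n = 2) and another at -3.10 ± 0.07. The mean of these probes, -0.41, passed as lower, but it describes neither of them, and the direction turns with the probe. Of the EMILIN family, Emilin1 lay at -2.75 ± 0.03 and Emilin2 at -1.23 ± 0.36, both lower in lung and opposite to Mmrn1.

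Apart from Pf4 and Ppbp, which adjoin, the measured neighbours of the 7 genes on their chromosomes had other ratios. Clec1b lies on chromosome 4 among other C-type lectin genes, and among the 4 protein-coding genes on each side only 2 were measured: Clec2ml1 at -0.29 ± 0.10 (SD, n = 2) and the lipoprotein receptor gene Olr1 at 1.21 ± 0.03. Next to Mmrn1, also on chromosome 4, Gprin3 lay at 0.05 ± 0.03, Tigd2 at 0.84 ± 0.03 and Fam13a at 1.02 ± 0.04. Treml1 on chromosome 9 stands beside receptors of the same family, of which Trem2, a microglial and macrophage receptor, lay at -0.05 ± 0.01 and did not pass the test, and Treml2 lay at -1.48 ± 0.31. Beside Gp5 on chromosome 11, Lrrc15 lay at -1.34 ± 0.03 and Cpn2 at 1.56 ± 0.07, and beside Gp9 on chromosome 4, Rab43 lay at 0.11 ± 0.02.

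Pf4 and Ppbp are adjacent in a row of chemokine genes on chromosome 14, and their neighbours went both ways. Cxcl2 lay at -5.41 ± 0.04 (SD, n = 2), Cxcl1 at -3.78 ± 0.03 and Cxcl6 at -2.97 ± 0.23, all 3 lower in lung. These encode attractants of neutrophils that stromal cells make when stimulated. Between Cxcl1 and Pf4 stands Cxcl3, whose probes lay at 8.20 ± 0.24 and -3.67 ± 0.10, so that its mean of 2.26 holds for neither. Of the CXC chemokine genes elsewhere, the interferon-induced Cxcl9 had the highest ratio, at 5.20 ± 0.13. Pf4 and Ppbp therefore stood apart in direction from Cxcl1, Cxcl2 and Cxcl6, which lie within a few genes of them.

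**Figure D3:**
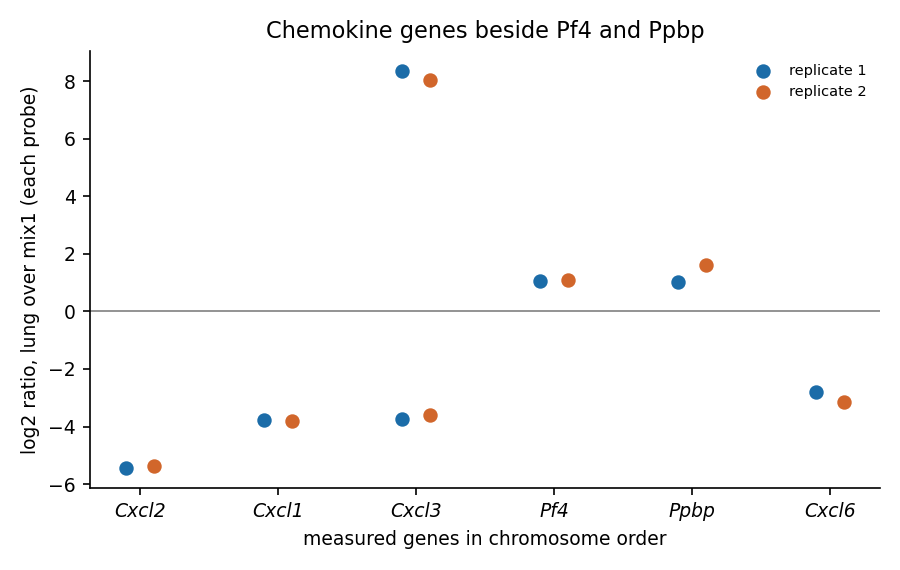
Log2 ratio of lung over mix1 (y axis) of each probe in replicates 1 and 2 for the measured chemokine genes around Pf4 and Ppbp, in the order of the chromosome (x axis). Cxcl2, Cxcl1 and Cxcl6 lie under -2.8, Pf4 and Ppbp between 1.03 and 1.62, and the 2 probes of Cxcl3 lie at 8.20 and -3.67 in the mean.

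Other genes of platelets and megakaryocytes were taken from 9 lists by role. Without the 7 genes, 102 of the 118 listed genes were measured, of which 60 were higher, 36 lower and 6 did not pass, that is 58.8% higher against 32.9% of all genes. Their median ratio was 0.56 against -0.22 for all genes. At least 2-fold higher in both arrays were 41.2% of them, and 13.7% were at least 2-fold lower, as were 15.8% of all genes. The highest of them was Vwf at 4.63. None reached Clec1b or Mmrn1, but that pair was chosen for very high ratios, so nothing is read from this. Many of these genes are also active in other cells, which the lists do not separate. The counts of each list stand against the 32.9% of all genes that were higher and the 49.7% that were lower, and a share near these is no result about the list.

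Among receptors, the partners of Gp5 and Gp9 differed in direction. Gp1bb, a subunit of the same complex, lay at 1.48 and 1.45 in replicates 1 and 2, close to Gp9, and was 2.76-fold higher. Gp1ba, the subunit that binds von Willebrand factor, lay at -1.10 and -0.88 and was 1.99-fold lower (limma adjusted p 0.00658). The 18 measured surface receptors had a median of 0.93, and 13 were higher and 4 lower. Clec1b and Treml1 are counted among the 13 and raise these figures, since they were chosen with their ratios known. The fatty acid and thrombospondin receptor Cd36 lay at 3.96 ± 0.04 (SD, n = 2), the junction proteins Esam and Pecam1 at 3.68 ± 0.03 and 3.61 ± 0.23, and all 3 are also endothelial genes. Jam3 at -1.73 and the collagen receptor subunit Itga2 at -0.86 ± 0.11 were lower. Of the receptors for soluble signals, 5 of 11 were higher and 6 lower (5 and 4 with array medians subtracted), that is 45.5% and 54.5%, near the shares of all genes. The ATP and ADP receptors P2rx1, P2ry1 and P2ry12 lay at 3.14 ± 0.27, 1.91 ± 0.22 and 1.76 ± 0.06, and the thrombin receptor gene F2rl2 at 2.38 ± 0.11. The thromboxane receptor Tbxa2r was lower at -0.66 ± 0.03. The adrenergic receptor Adra2a was lower by both probes, at -1.22 and -2.79, and the serotonin receptor Htr2a by each of its 4 probes, which ran from -6.14 to -0.72.

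Granule genes had 9 of 14 higher and 5 lower and the widest range of the platelet lists. Mmrn1, Pf4 and Ppbp are counted among the 9, and Mmrn1 sets the top of the range. They were chosen with their ratios known, so their part in the count is no result about the list. After Mmrn1 the highest was von Willebrand factor (Vwf), at 4.69 and 4.57 in replicates 1 and 2 and at 3.90 and 5.36 by its 2 probes. It was followed by the granule proteoglycan Srgn at 2.88 ± 0.07 (SD, n = 2) and clusterin (Clu) at 2.33 ± 0.01. At the other end, thrombospondin 1 (Thbs1) lay at -5.94 ± 0.09, 61.5-fold lower in lung, Sparc at -3.94 ± 0.16 and Tgfb1 at -1.70. Endothelial cells also make Vwf, and fibroblasts in culture also make Thbs1 and Sparc.

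Genes of the cascade below CLEC-2 and the collagen receptor were mostly higher in lung. The median of the 17 measured was 1.82, and 13 were higher and 3 lower. The kinase Lyn lay at 3.27 ± 0.03 (SD, n = 2), the phosphatase Ptpn6 at 2.65 ± 0.01, the adaptor SLP-76 (Lcp2) at 2.58 ± 0.05 and the phospholipase Plcg2 at 2.47 ± 0.01. Syk, named for its place below CLEC-2 after its value was seen, lay at 2.27 ± 0.13. The kinase Src was lower at -1.55 ± 0.02, and Fyn, lower at -0.20, no longer passed at -0.01 with array medians subtracted. Leukocytes use most of this cascade as well. In the list for integrin activation, 9 of 14 were higher and 4 lower. The Rap1 activator Rasgrp2 lay at 3.31 ± 0.14, kindlin-3 (Fermt3) at 2.23 ± 0.09 and Rgs18 at 1.96 ± 0.40, whereas talin (Tln1) lay at -0.72 ± 0.03 and Gnaq at -0.74 ± 0.04.

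Of 10 eicosanoid and cyclic nucleotide genes, 6 were higher and 3 lower. The platelet lipoxygenase Alox12 lay at 4.07 ± 0.17 (SD, n = 2) and the nitric oxide receptor subunit Gucy1b1 at 3.75 ± 0.09. Its partner Gucy1a1 lay at 5.23 ± 0.09 and 2.77 ± 0.16 by its 2 probes, while cyclo-oxygenase 1 (Ptgs1) was lower at -1.02 ± 0.01. The 11 cytoskeletal genes had a median of -0.85, the lowest of the platelet lists, and 3 (27.3%) were higher and 7 (63.6%) lower. Actn1 at -3.26 ± 0.03 and the myosin light chain Myl9 at -2.11 ± 0.03 were the lowest, and both are also abundant in spread fibroblasts.

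Of 10 measured transcription factors of megakaryocytes, 6 were higher and 3 lower. Nfe2, which is required for platelet release, lay at 3.59 in replicate 1 and 3.48 in replicate 2, or 11.6-fold higher in the mean. Gata2, active in progenitors and mast cells, lay at 2.41 ± 0.26 (SD, n = 2) and Fli1, an ETS factor also found in endothelium, at 1.27 ± 0.36. Gata1, which drives platelet and red cell genes and was named after its value was seen, lay at 0.55 ± 0.14, while Runx1 was lower at -0.67 ± 0.04 and Etv6 at -1.18 ± 0.09.

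Markers of other cell types of blood and vessels also stood high, and their part in the ratios of the 7 genes was not tested. Of 15 red cell genes, 12 were higher and 2 lower, with medians of 2.40 in replicate 1 and 2.19 in replicate 2. Among them beta globin (Hbb) lay at 3.94 ± 0.07 (SD, n = 2) and the red cell membrane gene Epb42 at 4.58 ± 0.19. The 2 lower genes were Gypc at -0.76 ± 0.03 and Ermap at -0.74 ± 0.29. The 17 neutrophil genes, with medians of 2.84 and 2.74, included 14 that were higher and 1 that was lower. They were led by S100a9 at 7.65 ± 0.04, and the lower gene was Il1r2 at -1.17 ± 0.01. Of 14 macrophage genes, which matter here because macrophages can also express Pf4, 8 were higher and 4 lower, with medians of 0.45 and 0.51. Both red cell and neutrophil medians lay above the ratios of Pf4, Ppbp and Gp9, and under that of Gp5.

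Endothelium, in which Mmrn1 is also expressed, was represented by 2 lists. Of 14 genes of vascular endothelium, 13 were higher and 1 lower, with medians of 3.13 in replicate 1 and 3.20 in replicate 2. Clec14a lay at 7.19 and 5.28 by its 2 probes and the VEGF receptor Kdr, with 1 probe, at 6.04 ± 0.11 (SD, n = 2). The lower gene was Robo4 at -0.70 ± 0.02. Of 11 genes of lymphatic endothelium, 7 were higher and 2 lower, with medians of 1.46 and 0.92. The hyaluronan receptor Lyve1 lay at 8.21 and 3.92 by its 2 probes and the chemokine Ccl21 at 4.35 ± 0.06. Prox1, the transcription factor that defines lymphatic identity, lay at 0.20 and -0.30 in the 2 arrays and did not pass the test. Sema3d, with probes at -2.22 and -3.59, and Foxc2, with probes at -0.52 and -2.61, were lower. The high ratio of Mmrn1 was thus accompanied by high ratios of most vascular genes and of some lymphatic and platelet genes. Other genes of the lymphatic and platelet lists were lower in lung. The arrays hold no measure that assigns the ratio of Mmrn1 to endothelium or to platelets.

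**Figure D4:**
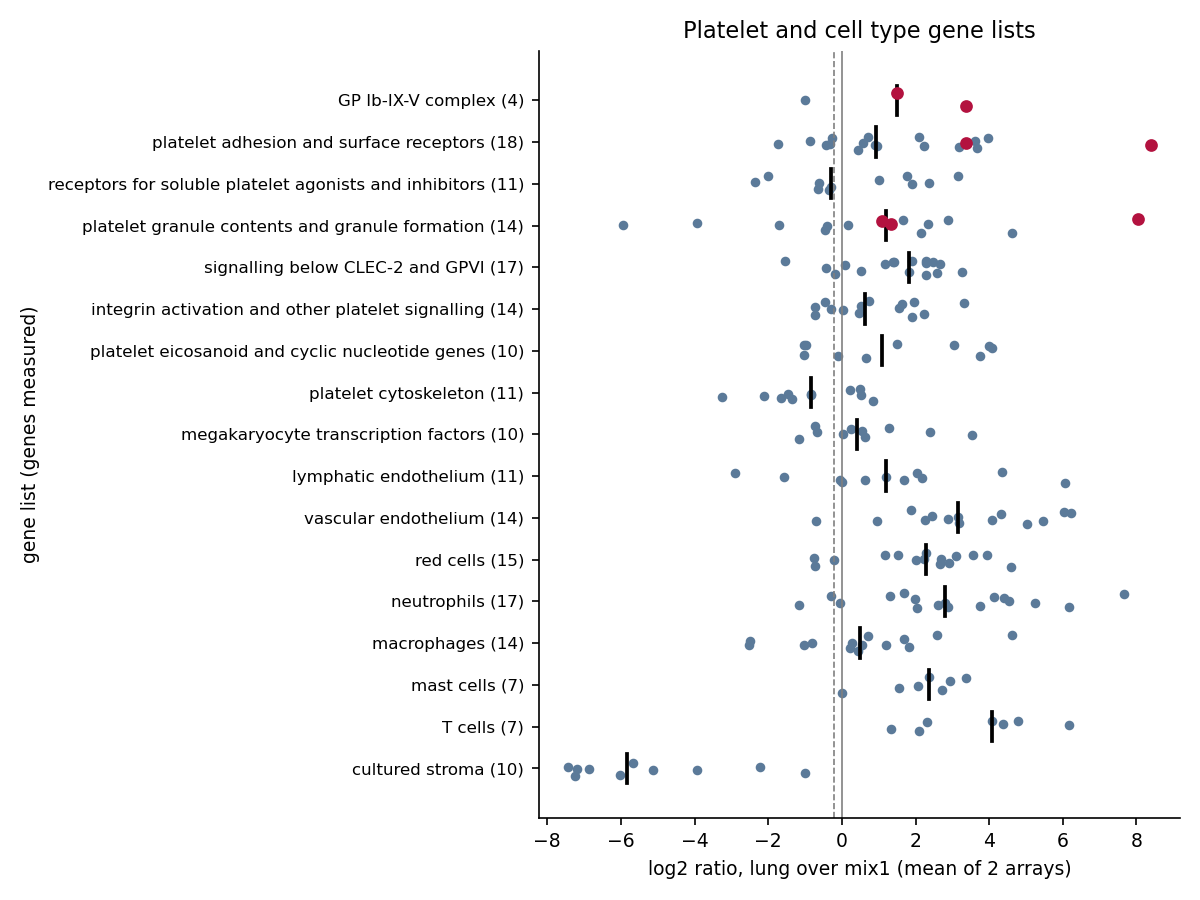
Mean log2 ratio of lung over mix1 (x axis) of each measured gene in the platelet and cell type lists (rows, with the number of genes measured), with black bars at the list medians and the 7 platelet genes in red. The dashed line is the median of all genes at -0.22; vertical scatter within a row carries no value. The cytoskeletal list has the lowest median of the platelet lists at -0.85. Clec1b and Mmrn1, chosen for very high ratios, lie apart from the other platelet genes at 8.38 and 8.05.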

How the data were processed

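The authors deposited 1 value per probe and array, taken here as the log2 ratio of lung (Cy3) over mix1 (Cy5). Values ran from -11.74 to 9.09, too wide for base 10 on such a scanner. Agilent Feature Extraction is named in the submitters' processing notes. Not given in the sources used here are its version, background correction, dye normalization or centring, of which the background correction sets the size of ratios with a dim channel. Array medians were -0.16 and -0.21 over all probes. The number of arrays limits the precision.

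Probes were named from the platform annotation and updated through RefSeq accessions (assembly GRCr8). The 20417 probes with 1 symbol gave 15611 genes, and 19595 probes stay unnamed. Probes of a gene were averaged. limma 3.58.1 in R 4.3.3 tested each gene's ratio against 0 over both arrays, with Benjamini-Hochberg adjustment over all genes and a threshold of 0.05. The spread of mix1 itself is not part of this test, since it is 1 RNA.

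The members and lists were chosen with earlier results of these data known. Named genes are the 7 members, the 6 sign genes, Pdpn, F5, neighbours in ratio, rank and position, and up to 4 highest and 3 lowest genes of a list, with exceptions marked. Symbols without a named probe, such as Gp6, Itga2b, Tubb1 and Mmrn2, and protein sequences were not analysed here. Alternatives changed the centring, scaling, probe choice, eBayes variant, threshold and arrays used.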

Additional observations from a re-analysis of the deposited data

How the results depend on the processing

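The median ratio of the 7 platelet genes, 3.36 as reported, was 3.55 with array medians subtracted and 1.73 with the lower middle probe of each gene, because that probe of Treml1 became the middle value. It ran from 3.35 to 3.37 without either replicate. Against a 2-fold change (limma's treat), 4024 of all genes passed in place of 12907, and among the other platelet and megakaryocyte genes 38 were higher and 12 lower in place of 60 and 36. That test asks for a larger change by construction. With the highest or the lower middle probe, F5 (2.28), Fyn (0.17) and Cxcl3 (-3.67) passed in the other direction. Kit (-0.017) and Mylk (-0.077) changed sign but no longer passed. All these genes have several probes. Of 1267 checks on 141 other named genes, 1204 kept direction and side of the threshold. The test of 2-fold change and the 0.01 threshold ended most of the 54 lost calls.

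Calls could not be counted without a replicate, since 1 array leaves no spread to test with. No paired analysis was possible because the series has 1 group, with lung and mix1 RNA on the same array. Signal over background was not analysed here, and 2 arrays limit every SD.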

Other observations

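Genes of T cells and mast cells, which enter none of the comparisons above, were also high. The 7 T cell genes had a median of 4.07 and all passed as higher, and Cd3g, a subunit of the T cell receptor complex, lay at 6.18 ± 0.21 (SD, n = 2). Their medians were 4.61 in replicate 1 and 3.33 in replicate 2, a wider gap than for red cell, neutrophil or vascular genes. The medians are those of different genes, Cd5 in replicate 1 and Cd3e in replicate 2. Cd3e itself lay at 4.82 and 3.33, while Cd2 and Lck were higher in replicate 2. The gap is thus no shift of the whole list. Of 7 mast cell genes, 6 were higher and 1 did not pass, with a median of 2.37, and the chymase gene Cma1 lay at 3.99 and 2.76 by its 2 probes. Over the 2 arrays, Ppbp was closest to Kynu, an enzyme of tryptophan breakdown, at 1.04 and 1.62, and Gp9 to the potassium channel gene Kcnk7 at 1.24 and 1.77. Among C-type lectin-like receptors, the natural killer receptor gene Klrd1 had a high ratio with a wide spread, 4.86 ± 1.33, and Cd69, an early activation antigen of lymphocytes, lay at 2.83 ± 1.02, while Clec2d was lower by both probes, at -2.08 and -3.87.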
